A study of Mus musculus with 6 samples.

Results

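Aminoacyl-tRNA synthetases are the enzymes that join each amino acid to its transfer RNA, and 36 of their genes were followed here, out of 27263 genes in the files. They were chosen by name. The 20 genes of the cytosolic set make the enzymes that feed ribosomes in the cytosol, and the 16 genes of the mitochondrial set, whose symbols end in 2, make nuclear-encoded enzymes imported into mitochondria. All 36 were present in the files, Mars1 under its GENCODE M21 symbol Mars.

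RNA sequencing was done on mouse bone marrow stromal cells of strain C57BL/6 in 2 groups of 3 libraries. The cells of both groups were obtained from tibial and femoral marrow by sorting for Sca-1 and CD29 and against CD45 and CD11b, and were grown with 10% serum. The GCA group received rGCA at 50 nM for 3 days, and the PBS group received the buffer PBS for the same time. The labels do not spell GCA out, and rGCA is taken here, from what is known of the study, to be the recombinant form of grancalcin, a protein of myeloid cells that binds calcium. The study asked how GCA acts on these cells. Neither the age of the mice nor whether the replicates were separate animals or cultures is in the labels. The p-values therefore reflect the spread among these 6 libraries, and that spread may be technical.

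Levels are in FPKM, fragments scaled to the exon length of the gene and to the total of the library. That length covers all annotated exons of a gene, whichever of them the cells used, so levels of different genes compare only roughly. The library totals behind them were inferred from the values themselves, at 17543509 to 18645932 fragments. Fragments recovered with these totals summed over genes to 18929244 to 19943239, above the inferred total in each library. Across genes, which are no independent replicates, log values of 2 libraries correlated at 0.989 to 0.994 in a group and at 0.981 to 0.985 between groups. Of the sort markers, Ly6a (Sca-1) stood at 324 ± 33.2 FPKM in GCA and 284 ± 41.4 in PBS, and Itgb1 (CD29) at 313 ± 21.1 in GCA and 348 ± 17.6 in PBS (SD, n = 3 each). Macrophage transcripts were present in every library. The 20 listed macrophage genes summed to 18072 to 19240 FPKM in GCA and 20431 to 22707 in PBS, with 9 of the 20 higher in GCA and 1 lower, Lyz2, the most abundant of them at 8879 FPKM in GCA and 13518 in PBS. After quantile normalization the log2 fold change of Lyz2, −0.61 otherwise, was −0.11 with adjusted p = 0.438, and that of C1qb, one of the 9, was 0.08 with adjusted p = 0.368 (limma). Ptprc (CD45), which the sort should leave out, was at 13.4 ± 0.893 FPKM in GCA and 12.6 ± 0.586 in PBS. Itgam (CD11b), also sorted against, was at 30.5 ± 8.995 FPKM in GCA and 39.3 ± 3.35 in PBS. The 12 stromal genes summed to 2412 to 2598 FPKM in GCA and 2768 to 3003 in PBS, with 3 of 11 tested lower in GCA and none higher. That made 27.3% of the tested stromal genes lower, and 45% of the macrophage genes higher and 5% lower. Of all tested genes, 6.43% were called lower and 11.5% higher. Listed markers of T and NK cells and of B cells each summed to under 1 FPKM in every library, endothelial markers to 2.41 to 2.92 in GCA and 2.42 to 2.63 in PBS, erythroid markers to 0.740 to 1.33 in GCA and 0.349 to 1.04 in PBS and neutrophil markers to 13.3 to 18.6 in GCA and 10.8 to 13.4 in PBS. No listed marker in the files was at 0 in all 6 libraries. The sums of the macrophage and stromal lists did not overlap between the groups. Lyz2 is the largest part of the macrophage sum, and it was called in the opposite direction to the 9 higher genes. The lower macrophage sum in GCA therefore does not give the direction of most called macrophage genes. The part of both lists in the synthetase results was not tested. In such bulk RNA, fewer cells of a type and less RNA per cell cannot be told apart.

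A synthetase activates its amino acid with ATP and then transfers it to the matching tRNA. Class I and class II enzymes differ in the fold of the active site. In the cytosol, several of them sit in the multisynthetase complex, held by the scaffold proteins Aimp1, Aimp2 and Eef1e1. Many cytosolic synthetase genes are induced by ATF4, the transcription factor that cells make more of when amino acids run short or the endoplasmic reticulum is stressed. Mitochondria translate only a few proteins of the respiratory chain and use their own set of synthetases for this. Gars and Kars each give rise to a cytosolic and a mitochondrial enzyme from 1 gene, so they stand in the cytosolic set while serving both compartments.

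Many cytosolic synthetase transcripts were modestly lower in GCA-treated cells, and of the mitochondrial set 1 transcript was higher. Of the 20 cytosolic genes 11 fell, none rose and 9 did not pass the threshold of an adjusted p of 0.05 (limma, Benjamini-Hochberg over 11984 genes). Across all tested genes 6.43% were called lower and 11.5% higher, 771 and 1380 genes, a split that quantile normalization moved to 1027 lower and 1198 higher. The count of 11 was 6 without GCA replicate 1 or PBS replicate 3, 7 without GCA replicate 3 or PBS replicate 1 and 3 without PBS replicate 2. The median log2 fold change of the 20 genes was −0.19, against 0.01 over all tested genes. Fold changes in log2 units are GCA over PBS, on the log2(FPKM + 1) scale. In the mitochondrial set, with 15 genes tested and a median of 0.03, 1 rose, none fell and 14 were not called. In the mitochondrial set 2 genes had an unadjusted p under 0.05, and in the cytosolic set 13 did. The difference between the sets was not tested.

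**Figure D1:**
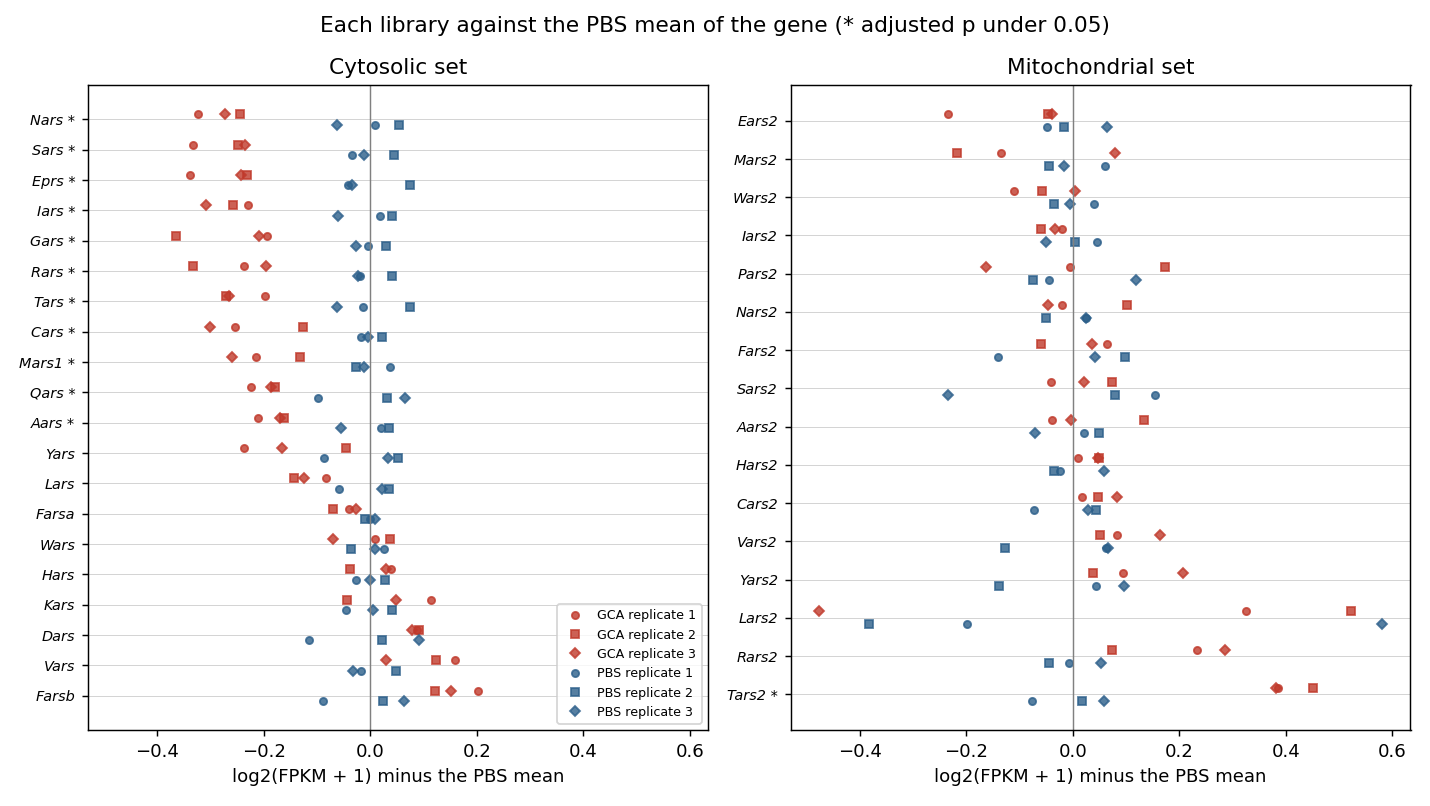
Each library's log2(FPKM + 1) minus the PBS mean of that gene (horizontal axis), for the 20 cytosolic genes (left) and the 16 mitochondrial genes (right), with GCA in red, PBS in blue and the replicate number as the shape. All 3 GCA points of the 11 starred cytosolic genes lie left of the PBS points, and Tars2, the starred mitochondrial gene, lies to the right.

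The called falls were small, and their range is partly set by the threshold, which Yars and Lars missed at −0.15 and −0.12 log2 units. Mean FPKM was 12.2% to 18.5% lower in GCA over the 11 genes, with log2 fold changes of −0.28 to −0.18 and standard errors of 0.0463 to 0.0587. In each of them the 3 GCA values lay below the 3 PBS values. Over the 20 genes this order held in 13, against 16.8% of all tested genes, and the opposite order held in 1, against 21.6%. Over all 20 cytosolic genes, the median deviation from the PBS mean of the gene was −0.20, −0.14 and −0.18 log2 units in GCA replicates 1 to 3 and −0.02, 0.04 and −0.01 in PBS replicates 1 to 3. The median deviation of the 11 called genes, which were chosen for small spread and separate groups, from their PBS mean was −0.23, −0.24 and −0.24 log2 units in GCA replicates 1 to 3 and −0.01, 0.04 and −0.03 in PBS replicates 1 to 3.

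Nars, which charges asparagine tRNA, had the highest level of the cytosolic set and the smallest p. It stood at 87.6, 92.6 and 90.8 FPKM in GCA replicates 1 to 3, against 111, 114 and 105 FPKM in PBS replicates 1 to 3. Every GCA library was below every PBS library, with means of 90.3 ± 2.50 FPKM in GCA and 109.9 ± 4.50 FPKM in PBS (log2 fold change −0.28, SE 0.0486, adjusted p = 0.00724, limma). Sars, the serine enzyme, was at 30.4, 32.3 and 32.6 FPKM in GCA replicates 1 to 3, against 37.7, 39.8 and 38.3 FPKM in PBS replicates 1 to 3. Its mean was 17.6% lower in GCA (log2 fold change −0.27, SE 0.0481, adjusted p = 0.00781, limma), and the groups did not overlap. Iars, the isoleucine enzyme, gave 18.5, 18.1 and 17.4 FPKM in GCA replicates 1 to 3, against 22.1, 22.5 and 20.9 FPKM in PBS replicates 1 to 3 (log2 fold change −0.27, SE 0.0491, adjusted p = 0.0093, limma). Nars, Sars and Iars kept their calls when any 1 of the 6 libraries was left out. Iars transcripts share 7.15% of their 50-base words with Gm4849, so reads could be split there.

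Other abundant cytosolic genes fell by similar amounts. Gars, the glycine enzyme, was at 48.0, 42.5 and 47.4 FPKM in GCA replicates 1 to 3, against 54.8, 56.1 and 54.0 FPKM in PBS replicates 1 to 3 (log2 fold change −0.26, SE 0.0562, adjusted p = 0.0178, limma). GCA replicate 2 was the lowest of the 6. Leaving out PBS replicate 1, 2 or 3 brought the adjusted p of Gars to 0.0514, 0.0663 and 0.0505. Rars, the arginine enzyme, was at 37.1, 34.7 and 38.3 FPKM in GCA replicates 1 to 3, against 43.4, 45.3 and 43.2 FPKM in PBS replicates 1 to 3 (log2 fold change −0.25, SE 0.0508, adjusted p = 0.0122, limma, and 0.0523 without PBS replicate 2). Tars, the threonine enzyme, was at 36.6, 34.7 and 34.9 FPKM in GCA replicates 1 to 3, against 41.7, 44.4 and 40.3 FPKM in PBS replicates 1 to 3 (log2 fold change −0.24, SE 0.0514, adjusted p = 0.0151, limma, and 0.0557 without PBS replicate 2). For all 3 genes the lowest PBS library stood above the highest GCA library.

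Aars, the alanine enzyme, was at 21.5, 22.3 and 22.1 FPKM in GCA replicates 1 to 3, against 25.4, 25.7 and 24.0 FPKM in PBS replicates 1 to 3. The fall was the smallest of the 11 on the log2 scale (log2 fold change −0.18, SE 0.0463, adjusted p = 0.0314, limma). It was lost on leaving out any library other than GCA replicate 2, with adjusted p = 0.0511 to 0.105. About 13.5% of the 50-base words in Aars transcripts also occur in the gene Exosc6, so its reads could be shared. Eprs makes a single protein that charges both glutamate and proline tRNA, one part of class I and the other of class II. Its values were 9.33, 10.1 and 10.0 FPKM in GCA replicates 1 to 3, against 11.7, 12.7 and 11.7 FPKM in PBS replicates 1 to 3 (log2 fold change −0.27, SE 0.0563, adjusted p = 0.0143, limma), the groups did not overlap, and the adjusted p was 0.0516 without GCA replicate 1 and 0.0543 without PBS replicate 2.

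Cars, Mars1 and Qars, the cysteine, methionine and glutamine enzymes, had the least stable calls beside Aars. Cars was at 7.52, 8.30 and 7.25 FPKM in GCA replicates 1 to 3, against 9.03, 9.32 and 9.13 FPKM in PBS replicates 1 to 3 (log2 fold change −0.23, SE 0.0587, adjusted p = 0.0323, limma). Mars1 was at 15.3, 16.3 and 14.8 FPKM in GCA replicates 1 to 3, against 18.4, 17.6 and 17.7 FPKM in PBS replicates 1 to 3 (log2 fold change −0.20, SE 0.051, adjusted p = 0.03, limma). Cars and Mars1 lost their calls on leaving out any library other than GCA replicate 2, at adjusted p = 0.0712 to 0.1 and 0.0683 to 0.0904. In GENCODE M21 the 3′ end of Mars1 overlaps the stress gene Ddit3 on the opposite strand by 68 bases, and the sources used here do not give how such reads were assigned. Qars was at 16.2, 16.7 and 16.6 FPKM in GCA replicates 1 to 3, against 17.7, 19.5 and 19.99 FPKM in PBS replicates 1 to 3 (log2 fold change −0.20, SE 0.055, adjusted p = 0.0432, limma). Leaving out any library other than PBS replicate 1 ended that call, at adjusted p = 0.0645 to 0.144.

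Among the 9 cytosolic genes that did not pass, 5 had a mean above that of PBS and 4 below it. Farsa and Farsb encode the alpha and beta subunits of the phenylalanine enzyme, a complex of both. Farsa was at 9.87, 9.65 and 9.97 FPKM in GCA replicates 1 to 3, against 10.2, 10.1 and 10.2 FPKM in PBS replicates 1 to 3. The GCA values of Farsa lay just below those of PBS. Farsb was at 28.4, 26.8 and 27.4 FPKM in GCA replicates 1 to 3, against 23.0, 24.99 and 25.7 FPKM in PBS replicates 1 to 3, all GCA values above all PBS values, without passing (log2 fold change 0.16, SE 0.054, adjusted p = 0.078, limma). The 2 subunits thus had estimates of opposite sign, and their difference was not tested. Lars, the leucine enzyme, was lower in every GCA library, at 20.7 ± 0.471 FPKM in GCA and 22.5 ± 0.814 FPKM in PBS, and did not pass (adjusted p = 0.128, limma).

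Yars, the tyrosine enzyme, was at 8.22 ± 0.624 FPKM in GCA and 9.21 ± 0.526 FPKM in PBS with overlapping groups. Wars, the tryptophan enzyme and a gene known to be induced by interferon gamma, had nearly equal levels of 19.2 ± 0.768 FPKM in GCA and 19.3 ± 0.446 FPKM in PBS (log2 fold change −0.01, SE 0.0485). Hars, Kars, Dars and Vars, for histidine, lysine, aspartate and valine, had log2 fold changes of 0.01, 0.04, 0.09 and 0.10, and the 2 groups overlapped in each. A p above the threshold does not show that these levels were equal. The standard errors of the 9 genes, 0.0449 to 0.0672, were like those of the genes that passed.

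**Figure D2:**
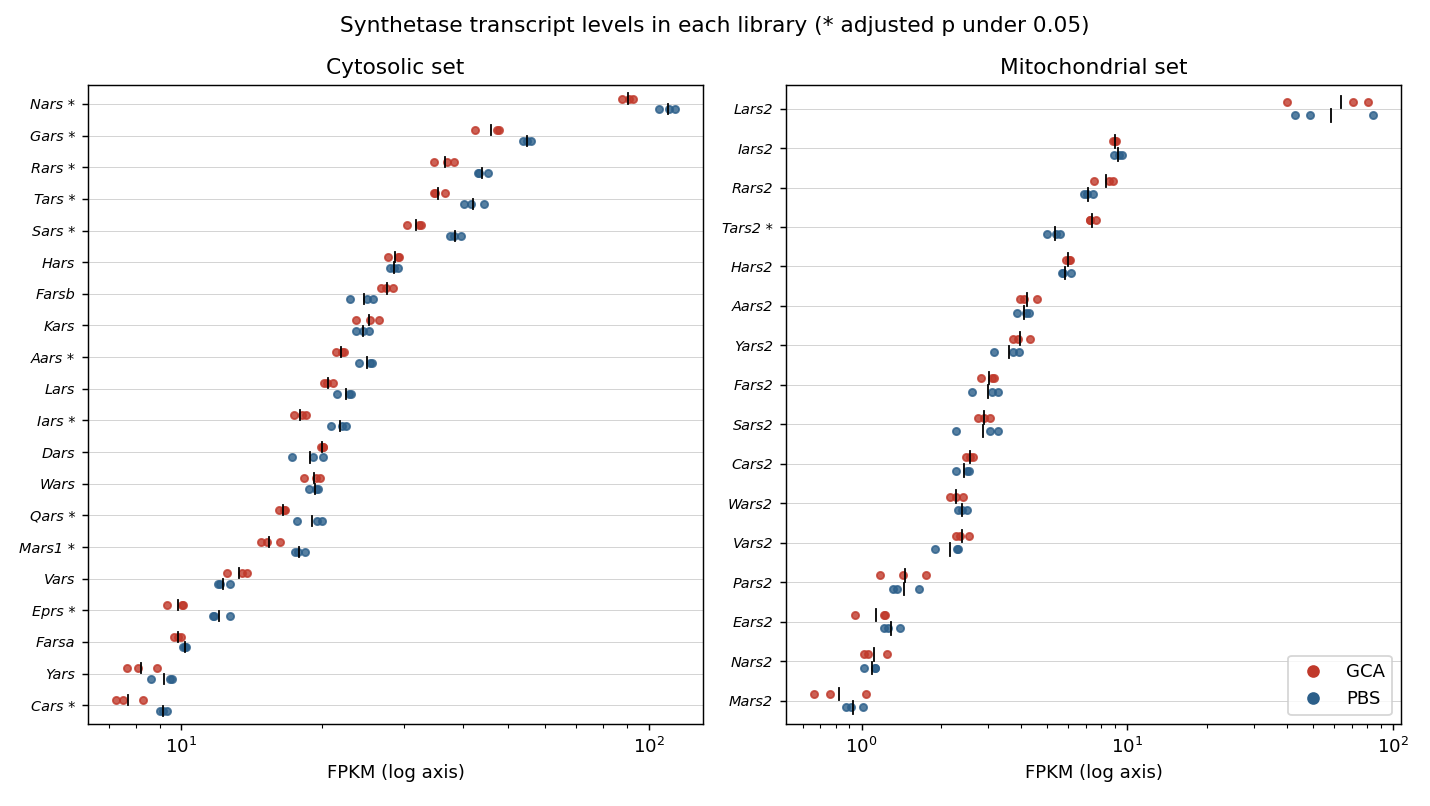
FPKM on a log axis for each library, GCA in red above PBS in blue, with a black tick at the group mean and genes ordered by their mean over the 6 libraries. In the cytosolic set 18 of 20 genes average over 10 FPKM, and in the mitochondrial set 1 of 16 does, Lars2, whose values are spread widely within both groups.

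The falls were spread over structural classes and complexes. Of the 9 class I cytosolic genes 5 fell, and of the 10 class II genes 5 fell, with Eprs, which joins both classes, as the 11th. The class I count was 2 without GCA replicate 1, GCA replicate 3 or PBS replicate 3, 3 without PBS replicate 1 and 1 without PBS replicate 2. The class II count was 3 without PBS replicate 1 or 3 and 2 without PBS replicate 2. Of the 8 enzymes known to sit in the multisynthetase complex 5 fell (Eprs, Iars, Mars1, Qars and Rars), none rose, and Lars, Kars and Dars did not pass. The complex enzymes had a median log2 fold change of −0.20, and 2 of them passed without GCA replicate 1, 3 without GCA replicate 3 or PBS replicate 3 and 1 without PBS replicate 2. Of the 3 scaffold genes, Eef1e1 was at 5.13 ± 0.382 FPKM in GCA and 6.36 ± 0.443 FPKM in PBS (log2 fold change −0.26, SE 0.0699, adjusted p = 0.0353, limma), a call lost at adjusted p = 0.0811 to 0.119 on leaving out GCA replicate 2 or 3 or PBS replicate 2 or 3. Aimp1 and Aimp2 had log2 fold changes of 0.00 and 0.07 and did not pass.

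Of 12 cytosolic synthetases widely listed as induced by ATF4 in mouse and human cells, 9 fell and none rose. Lars, Wars and Yars missed the threshold. The median of the 12 log2 fold changes was −0.24. All 12 had an estimate below 0. Of the other 8 cytosolic genes 2 fell, Qars and Rars, and 6 did not pass, with a median of 0.02. The count of 9 was 5 without GCA replicate 1, PBS replicate 1 or PBS replicate 3 and 3 without PBS replicate 2. The count of 2 was 1 without GCA replicate 1, 2 or 3 or PBS replicate 3 and 0 without PBS replicate 2. Membership was set with earlier results of these data known, and the difference between the lists was not tested.

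Promoter sequences are shown for the cytosolic genes that hold a short element linked to ATF4. The C/EBP-ATF response element has the core TGATGNAA, where N is any base, and it was searched on both strands in RefSeq promoter windows of 300 bases, from 250 before to 50 after each start, on build GRCm38.p6. The core occurs in 3.97% of all 32851 windows and in 4.51% of the 27025 genes that have one. Windows were matched for 27 of the 36 members. The core was found in 5 of 13 cytosolic genes and in 0 of 14 mitochondrial genes. It was in 4 of the 8 cytosolic genes that fell and in 1 of the 5 that did not pass, Yars. The 4 of 8 became 3 of 4 without GCA replicate 1, 3 of 5 without GCA replicate 3, 2 of 5 without PBS replicate 1, 1 of 2 without PBS replicate 2 and 2 of 4 without PBS replicate 3. No window was matched for Cars, Lars, Rars, Vars, Wars, Hars, Nars, Hars2 and Pars2. A match describes letters in the sequence and is not evidence of a bound factor, and its absence says only that these letters are not in the window.

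The part of each window from 120 bases before to 30 after the start is printed 5′ to 3′ on the gene's strand, with every match to the core in capitals. A match on the other strand shows as the reverse complement of the core. Sars, which fell, and Tars2, which rose, hold no match and are given for comparison. The RefSeq starts used need not be the GENCODE M21 ones. The stretches of Tars2, Aars and Yars lie wholly inside their GENCODE M21 genes, whose annotated 5′ ends are at 95760206, 111033144 and 129189760. Sequence around those ends was not searched separately. The stretches are Aars (chr8:111033722-111033871, plus strand), Gars (chr6:55037881-55038030, plus strand), Iars (chr13:49682010-49682159, plus strand), Tars (chr15:11399629-11399778, minus strand), Yars (chr4:129189783-129189932, plus strand), Sars (chr3:108445230-108445379, minus strand) and Tars2 (chr3:95754948-95755097, minus strand).
Aars: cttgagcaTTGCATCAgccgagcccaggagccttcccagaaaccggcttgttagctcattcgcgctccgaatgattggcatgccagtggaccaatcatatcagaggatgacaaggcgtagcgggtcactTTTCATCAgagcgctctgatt
Gars: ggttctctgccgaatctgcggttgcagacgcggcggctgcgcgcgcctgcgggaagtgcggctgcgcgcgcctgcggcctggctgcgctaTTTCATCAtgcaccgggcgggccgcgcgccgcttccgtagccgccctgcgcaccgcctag
Iars: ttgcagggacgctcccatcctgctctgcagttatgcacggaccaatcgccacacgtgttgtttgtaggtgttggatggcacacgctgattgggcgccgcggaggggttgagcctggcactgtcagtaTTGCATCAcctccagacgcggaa
Tars: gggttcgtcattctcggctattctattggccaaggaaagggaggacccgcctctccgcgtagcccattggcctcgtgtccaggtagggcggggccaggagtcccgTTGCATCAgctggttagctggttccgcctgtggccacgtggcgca
Yars: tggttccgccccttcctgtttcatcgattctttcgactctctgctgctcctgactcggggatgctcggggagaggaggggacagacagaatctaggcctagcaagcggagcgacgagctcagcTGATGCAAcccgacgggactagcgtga
Sars: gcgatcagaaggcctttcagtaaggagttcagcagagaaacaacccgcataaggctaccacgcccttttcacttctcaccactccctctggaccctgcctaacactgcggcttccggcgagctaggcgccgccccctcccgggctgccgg
Tars2: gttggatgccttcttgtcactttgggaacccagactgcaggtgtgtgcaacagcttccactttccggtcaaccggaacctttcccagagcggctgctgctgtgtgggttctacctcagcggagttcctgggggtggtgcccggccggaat
Each of the 5 genes has a match within 30 bases of its start. In Iars, Tars and Yars the element is TGATGCAA, read on the gene's strand in Yars and as TTGCATCA in the others. Aars holds TTGCATCA 112 bases before the start, and its match after the start is TTTCATCA, the letters also found in Gars. In expression, Aars, Gars, Iars and Tars fell in GCA cells, as given above, and Yars was lower on average without passing (adjusted p = 0.166, limma).

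Mitochondrial synthetase transcripts were low, and 1 of the 15 tested rose. That is 6.67%, below the 11.5% of all tested genes called higher. Apart from Lars2, their means over the 6 libraries ran from 0.876 FPKM for Mars2 to 9.13 for Iars2, and 11 of the 16 were under 5 FPKM. Behind the mitochondrial values stood as few as 68 fragments for 1 library, against at least 768 in the cytosolic set. Mars2, the methionine enzyme, averaged under the filter of 1 FPKM, at 0.82 ± 0.197 FPKM in GCA and 0.932 ± 0.074 FPKM in PBS, and was not tested.

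Tars2, the mitochondrial threonine enzyme, annotated on the minus strand of chromosome 3 from 95739976 to 95760206 in GRCm38, rose. It stood at 7.26, 7.65 and 7.23 FPKM in GCA replicates 1 to 3, against 5.00, 5.40 and 5.58 FPKM in PBS replicates 1 to 3. All GCA values lay above all PBS values, and the mean was 38.5% higher in GCA (log2 fold change 0.41, SE 0.0574, adjusted p = 0.00305, limma). The call of Tars2 held on leaving out each library, at adjusted p of up to 0.0145. Its cytosolic partner Tars fell in the same libraries.

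Rars2, the arginine enzyme, was at 8.53, 7.53 and 8.88 FPKM in GCA replicates 1 to 3, against 7.07, 6.86 and 7.41 FPKM in PBS replicates 1 to 3. The groups did not overlap, and the gene did not pass (log2 fold change 0.20, SE 0.0672, adjusted p = 0.0789, limma). Without GCA replicate 2, the lowest GCA library, its adjusted p was 0.0243, and on leaving out any other library it was 0.12 to 0.206 (limma). Iars2, for isoleucine, was at 9.11, 8.84 and 9.03 FPKM in GCA replicates 1 to 3, against 9.59, 9.29 and 8.91 FPKM in PBS replicates 1 to 3, with overlapping groups (log2 fold change −0.04, SE 0.0497). Some 22% of the 50-base words of Iars2 transcripts also occur in Rab3gap2, which overlaps it on the opposite strand. Hars2, for histidine, was at 5.89, 6.07 and 6.07 FPKM in GCA replicates 1 to 3, against 5.73, 5.68 and 6.12 FPKM in PBS replicates 1 to 3, also overlapping. Hars2 and the cytosolic Hars are annotated head to head on opposite strands with 198 shared bases at their starts.

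Lars2, the leucine enzyme on chromosome 9 from 123366927 to 123462666 in GRCm38, stood apart from every other member in its spread. It was at 70.6, 81.0 and 40.03 FPKM in GCA replicates 1 to 3, against 48.8, 42.8 and 84.4 FPKM in PBS replicates 1 to 3. Libraries of the same group differed more than the groups did, and the test did not pass (log2 fold change 0.12, SE 0.361, adjusted p = 0.851, limma). The most abundant entry of the files, Gm23935 on chromosome 16, which GENCODE M21 lists as a microRNA gene, was at 36169, 45364 and 21794 FPKM in GCA replicates 1 to 3, against 27906, 22765 and 46049 FPKM in PBS replicates 1 to 3. The order of the 6 libraries was the same for both. Per 1000 FPKM of Gm23935 there were 1.95, 1.78 and 1.84 FPKM of Lars2 in GCA replicates 1 to 3 and 1.75, 1.88 and 1.83 in PBS replicates 1 to 3. Gm23935 was singled out after its values were seen. Lars2 transcripts share 0.196% of their 50-base words with 5 other annotated genes. Whether the Lars2 values count another RNA was not tested, and they are given here as listed.

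**Figure D3:**
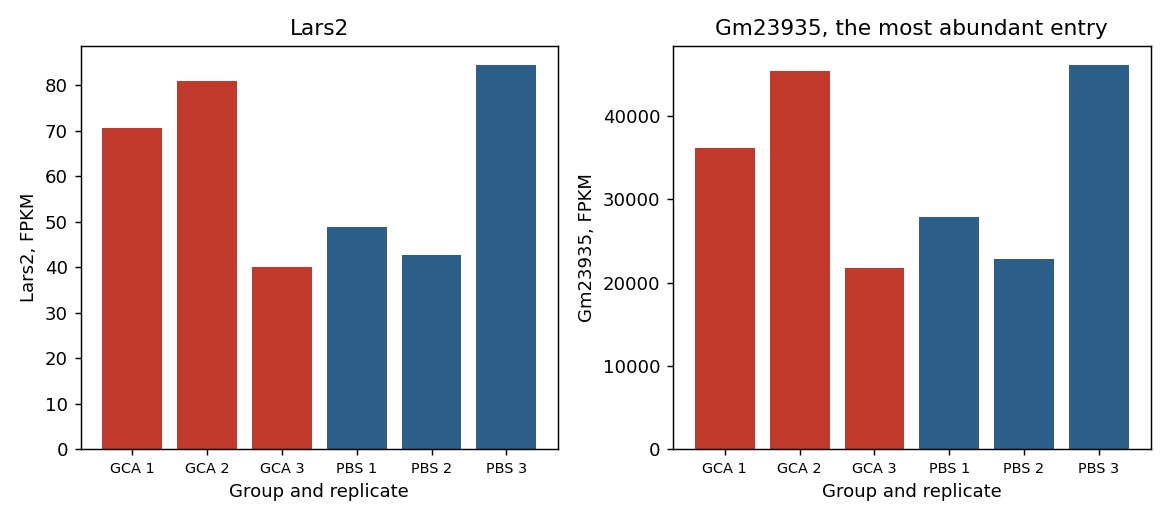
FPKM of Lars2 (left) and of Gm23935, the most abundant entry (right), in each library, GCA in red and PBS in blue, with bars starting at 0. GCA replicate 2 and PBS replicate 3 are high and GCA replicate 3 and PBS replicate 2 low in both panels.

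The other 10 mitochondrial genes, Aars2, Cars2, Ears2, Fars2, Nars2, Pars2, Sars2, Vars2, Wars2 and Yars2, for alanine, cysteine, glutamate, phenylalanine, asparagine, proline, serine, valine, tryptophan and tyrosine, had overlapping groups. Their log2 fold changes ran from −0.11 for Ears2 to 0.11 for Yars2. Ears2 was at 1.13 ± 0.16 FPKM in GCA and 1.29 ± 0.0931 FPKM in PBS, with a log2 fold change of the opposite sign to that of Yars2. Yars2, which had the next smallest p among the mitochondrial genes after Tars2 and Rars2, was at 3.89, 3.71 and 4.29 FPKM in GCA replicates 1 to 3, against 3.73, 3.17 and 3.90 FPKM in PBS replicates 1 to 3 (adjusted p = 0.374, limma). Within groups, the coefficient of variation of the 35 members other than Lars2 was 0.502% to 24.0% in GCA and 0.732% to 18.5% in PBS.

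Summed over the set, cytosolic synthetase levels were 504, 499 and 504 FPKM in GCA replicates 1 to 3, against 557, 580 and 557 FPKM in PBS replicates 1 to 3. The GCA sums lay close together, below every PBS sum, with means of 502 ± 2.89 in GCA and 564 ± 13.1 in PBS. Mitochondrial sums without Lars2 were 55.7, 56.2 and 57.6 FPKM in GCA replicates 1 to 3, against 53.0, 52.2 and 53.4 in PBS replicates 1 to 3, higher in each GCA library. Without Tars2 and Rars2 as well, the sums were 39.9, 41.0 and 41.5 in GCA replicates 1 to 3 and 40.9, 39.95 and 40.4 in PBS replicates 1 to 3, and the groups overlapped. Without Lars2 alone, the cytosolic sum was 8.89 ± 0.158 times the mitochondrial sum in GCA and 10.7 ± 0.366 times in PBS. With Lars2 that ratio was 4.26 ± 0.794 in GCA and 5.20 ± 1.05 in PBS, and the groups overlapped. These sums describe the members and carry no test.

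Genes that charge tRNA for the same amino acid were then set side by side. Over 17 pairs of a cytosolic and a mitochondrial gene, mean FPKM of the cytosolic gene was 0.352 to 91.0 times that of its partner, with a median of 5.65. Eprs was paired with both Ears2 and Pars2, and Fars2 with both Farsa and Farsb, so pairs share genes. The ratio was below 1 in the Lars and Lars2 pair alone. The log2 ratio of FPKM + 1 was lower in GCA in 14 pairs, and in 8 of them the GCA libraries all lay below the PBS libraries. The cytosolic gene of each of these 8 pairs is one already called lower, so the count largely repeats those calls. No share over other gene pairs was computed. The largest shift was of Tars over Tars2, with a log2 ratio of 2.12 ± 0.0698 in GCA and 2.77 ± 0.104 in PBS, a difference of −0.65. Rars over Rars2 was at 2.02 ± 0.0411 in GCA and 2.47 ± 0.0817 in PBS, a difference of −0.45.

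Pairs whose cytosolic gene fell and whose partner stayed near 0 shifted less. Nars over Nars2 was at 5.44 ± 0.061 in GCA and 5.73 ± 0.0966 in PBS, a difference of −0.29. Sars over Sars2 was at 3.07 ± 0.0336 in GCA and 3.36 ± 0.207 in PBS, a difference of −0.29. In the opposite direction, Farsb over Fars2 was at 2.83 ± 0.0332 in GCA and 2.68 ± 0.0657 in PBS, a difference of 0.15, the one pair with all GCA values above those of PBS. Vars over Vars2 and Wars over Wars2 differed by 0.01 and 0.05 with overlapping groups.

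**Figure D4:**
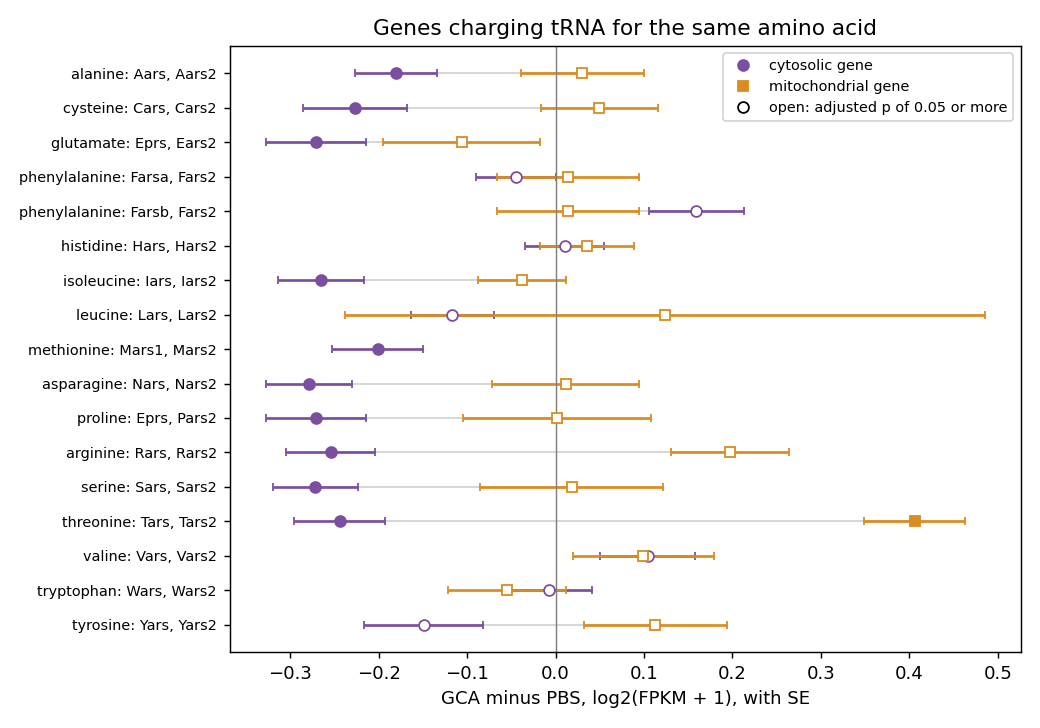
GCA minus PBS on the log2(FPKM + 1) scale with its standard error (horizontal axis), for the cytosolic gene (circle) and the mitochondrial gene (square) of 17 same-amino-acid pairs, filled where the adjusted p is under 0.05. Mars2 is below the filter and has no square. The filled circles lie between −0.28 and −0.18, and the filled square is Tars2 at 0.41.

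The set has no mitochondrial glutamine enzyme. Mitochondria make glutaminyl-tRNA by charging it with glutamate through Ears2 and converting it with the amidotransferase of Qrsl1, Gatb and Gatc. Qrsl1 was at 2.63, 2.65 and 2.63 FPKM in GCA replicates 1 to 3, against 2.14, 2.06 and 2.40 FPKM in PBS replicates 1 to 3, all GCA values above those of PBS, and did not pass (adjusted p = 0.0988, limma). Gatc was at 14.3 ± 0.804 FPKM in GCA and 12.5 ± 0.976 FPKM in PBS and Gatb at 3.93 ± 0.416 FPKM in GCA and 3.17 ± 0.392 FPKM in PBS, with adjusted p = 0.102 and 0.103. In the whole list of mitochondrial charging partners and elongation factors, 0 of 12 tested genes passed in either direction. An unadjusted p under 0.05 (limma) was found for 5 of the 12, against 3928 of all 11984 tested genes. Without trend and robust moderation limma called 1 higher. The list's median log2 fold change was 0.04. Mtfmt, which formylates initiator methionyl-tRNA, had a log2 fold change of −0.14, and Tufm, the mitochondrial elongation factor that delivers charged tRNA, −0.09.

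Among genes that mature and export cytosolic tRNA, 1 of 15 tested fell, none rose and 14 did not pass. That share of 6.67% is near the 6.43% of all tested genes called lower. The gene that fell was Xpot, the nuclear export receptor for tRNA, which also appears in ATF4 target lists. It was at 14.7, 19.1 and 16.1 FPKM in GCA replicates 1 to 3, against 22.9, 21.6 and 21.5 FPKM in PBS replicates 1 to 3. GCA replicate 2 was the nearest to PBS, and the groups did not overlap (log2 fold change −0.39, SE 0.0872, adjusted p = 0.0194, limma). Leaving out GCA replicate 3 or PBS replicate 1, 2 or 3 brought the adjusted p of Xpot to 0.0557 to 0.0705. The CCA-adding enzyme Trnt1 and the tRNA ligase Rtcb had log2 fold changes of −0.06 and −0.11 and did not pass.

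Of 10 tested cytosolic genes that edit or deliver charged tRNA, 3 fell, none rose and 7 did not pass. The 3 make 30%, against 6.43% of all tested genes called lower. The count was 1 without GCA replicate 1 or PBS replicate 2 and 0 without PBS replicate 3. Eef1a1, the elongation factor that carries charged tRNA to the ribosome, was at 2428 ± 60.5 FPKM in GCA and 2869 ± 110.2 FPKM in PBS (log2 fold change −0.24, SE 0.0524, adjusted p = 0.0174, limma). That call depended on the scaling, with a log2 fold change of −0.06 and adjusted p = 0.513 after quantile normalization. It was also lost at 0.0628 to 0.0801 on leaving out GCA replicate 1 or 3 or PBS replicate 2 or 3. Eef1b2, a subunit of its exchange factor, was at 104 ± 2.56 FPKM in GCA and 125 ± 7.43 FPKM in PBS (log2 fold change −0.26, SE 0.0544, adjusted p = 0.0141, limma, with 0.0578 to 0.0588 without PBS replicate 2 or 3). Of 4 genes for selenocysteinyl-tRNA none passed, and none had an unadjusted p under 0.05.

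The amino acid response is the wider set of ATF4-linked genes. It had 30 tested genes with a median log2 fold change of −0.36, and 23 fell, 1 rose (Ddit4) and 6 were not called. The 23 make 76.7% of those tested, against 6.43% of all tested genes called lower. The count of 23 was 15 without GCA replicate 3, 14 without PBS replicate 1 and 12 without PBS replicate 2. This list was drawn up with earlier falls in these libraries known, so its direction is not independent evidence. Atf4 itself was at 106, 122 and 104 FPKM in GCA replicates 1 to 3, against 143, 153 and 140.4 FPKM in PBS replicates 1 to 3 (log2 fold change −0.40, SE 0.0693, adjusted p = 0.00752, limma). Among amino acid carriers, Slc38a2, a transporter of small neutral amino acids, was at 32.1, 40.6 and 33.9 FPKM in GCA replicates 1 to 3, against 71.7, 70.4 and 71.7 FPKM in PBS replicates 1 to 3 (log2 fold change −0.99, SE 0.0804, adjusted p = 0.000396, limma). Slc7a5, the light chain of a leucine carrier, was at 6.54 ± 0.637 FPKM in GCA and 11.2 ± 1.34 FPKM in PBS (log2 fold change −0.69, SE 0.0956, adjusted p = 0.00297, limma). Phgdh, the first enzyme of serine synthesis, was at 19.4 ± 2.65 FPKM in GCA and 33.6 ± 1.44 FPKM in PBS, and Shmt2, a mitochondrial serine and glycine enzyme, at 14.0 ± 0.647 FPKM in GCA and 19.2 ± 1.12 FPKM in PBS, both past the threshold. Ddit4, an inhibitor of mTORC1 signalling, was at 99.7 ± 14.1 FPKM in GCA and 62.4 ± 1.23 FPKM in PBS. Chac1, a glutathione-degrading enzyme, was at 2.09 ± 0.505 FPKM in GCA and 5.72 ± 1.09 FPKM in PBS (adjusted p = 0.0046, limma).

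The 11 called synthetases lay between −0.28 and −0.18 log2 units. The 23 genes of the amino acid response that fell lay between −2.42 (Slc7a11, a cystine carrier) and −0.19 (Ddit3), which overlaps the range of the synthetases, and the difference was not tested. The call of Slc7a11 was lost at adjusted p = 0.0563 to 0.0825 (limma) on leaving out GCA replicate 1 or PBS replicate 2 or 3, and that of Ddit3 at 0.0556 to 0.094 on leaving out any library other than GCA replicate 2. The median deviation of the amino acid response from its PBS mean was −0.35, −0.33 and −0.33 log2 units in GCA replicates 1 to 3 and 0.03, 0.04 and −0.05 in PBS replicates 1 to 3. For the 12 ATF4-listed synthetases it was −0.22, −0.20 and −0.24 in GCA replicates 1 to 3 and −0.01, 0.04 and −0.02 in PBS replicates 1 to 3. Eif2ak4, which encodes the kinase GCN2 that senses uncharged tRNA, was at 4.02 ± 0.14 FPKM in GCA and 4.12 ± 0.158 FPKM in PBS and did not pass.

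**Figure D5:**
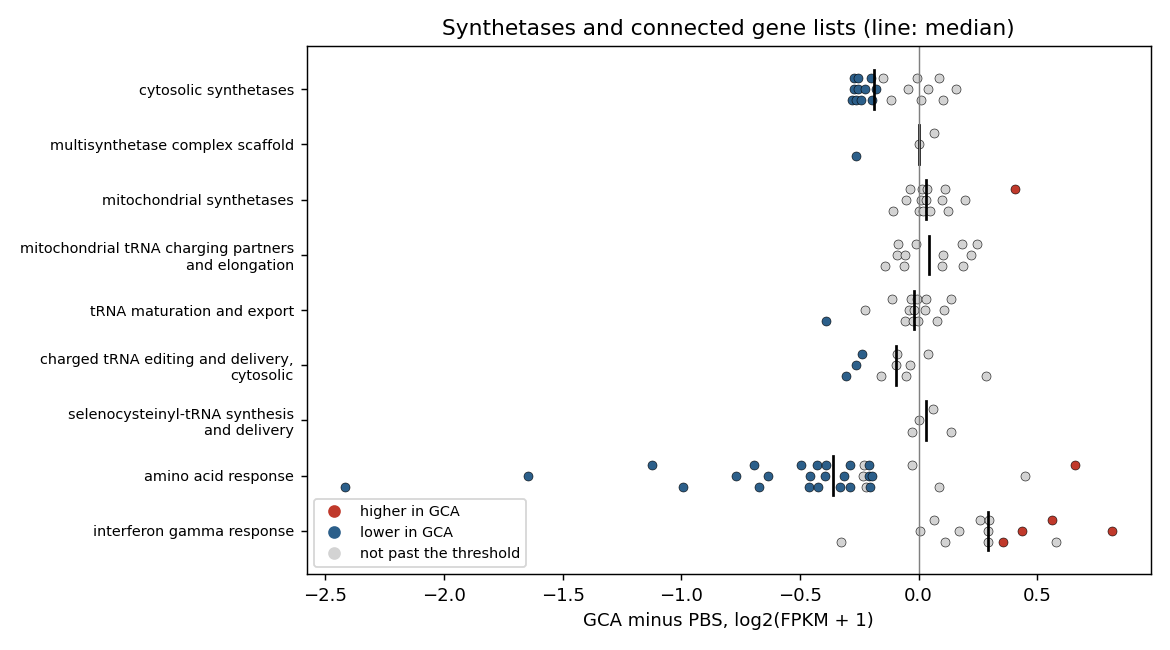
GCA minus PBS on the log2(FPKM + 1) scale (horizontal axis) for each tested gene of the synthetase sets and 7 connected lists, red where higher in GCA, blue where lower and grey where the adjusted p is 0.05 or more, with a black line at the list's median. The medians are −0.19 for the cytosolic synthetases, 0.03 for the mitochondrial ones and −0.36 for the amino acid response.

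Because Wars is an interferon gamma target, the listed interferon gamma genes were set beside it. There were 14 tested, and 4 rose, or 2 without PBS replicate 2, while 10 were not called. The 4 make 28.6% of those tested, against 11.5% of all tested genes called higher. The list's median deviation from the PBS mean was 0.47, 0.15 and 0.19 log2 units in GCA replicates 1 to 3 and 0.19, −0.04 and −0.14 in PBS replicates 1 to 3, with GCA replicate 1 the highest and PBS replicate 1 level with GCA replicate 3. Psmb9, an immunoproteasome subunit, was at 12.9 ± 0.776 FPKM in GCA and 6.88 ± 0.558 FPKM in PBS and the peptide transporter gene Tap1 at 33.7 ± 2.21 FPKM in GCA and 22.6 ± 2.99 FPKM in PBS, both past the threshold. Psmb8, at 11.4 ± 1.23 FPKM in GCA and 8.71 ± 0.507 FPKM in PBS, and Ifi47, at 41.1 ± 6.66 FPKM in GCA and 29.9 ± 0.886 FPKM in PBS, also rose, with adjusted p = 0.0197 and 0.0251 (limma). Leaving out GCA replicate 1 or PBS replicate 1 or 2 brought that of Psmb8 to 0.0516 to 0.0694, and leaving out PBS replicate 1, 2 or 3 brought that of Ifi47 to 0.0697 to 0.0849. Irf1, a transcription factor of this response, was at 15.5 ± 2.85 FPKM in GCA and 14.6 ± 1.82 FPKM in PBS and did not pass. Wars itself was at 19.4, 19.8 and 18.3 FPKM in GCA replicates 1 to 3, against 19.7, 18.8 and 19.4 FPKM in PBS replicates 1 to 3, with no separation of the groups.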

How the data were processed

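Per the labels' protocols, Trizol extracts were sequenced from both ends at 150 bp. The authors deposited 1 value per Ensembl gene and library. No header names the unit, and it was identified as FPKM from the deposited values: once multiplied by GENCODE M21 exon length, 91% of values above 0 came to within 0.02 of a whole fragment, given 1 total per library. This held for all 6 values of 31 of the 36 synthetase genes. The submitters' processing notes name Bowtie 0.12.2 and 2 builds, mm8 and mm9. The sources used here do not give the counting tool, annotation, filters or use of strand, or which build was aligned to. Of 27263 genes 27204 matched GENCODE M21 on GRCm38 by identifier, which gave symbols, lengths and positions, and 59 did not.

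Two-sided tests used limma-trend (limma 3.58.1 in R 4.3.3), robust, on log2(FPKM + 1), for 11984 genes averaging 1 FPKM or more. The model had group as its single term. Adjustment followed Benjamini and Hochberg over all genes tested, with 0.05 as the threshold. This scale understates fold changes of low genes. Levels, sums, ratios and shared 50-base words were computed with Python 3.11.15, numpy 2.4.6 and pandas 2.3.3, and plots with matplotlib 3.10.9. Members and lists were chosen with earlier results of these data known. All 36 members are accounted for. Those past the threshold, the 5 most abundant of each set and the 3 with the smallest p of each set are given by library, with called genes of the other lists, up to 6 by smallest p. Atf4, the extremes of the amino acid response and uncalled genes of these lists were named outside this rule, with values seen. Values of some listed genes are not reported here. Alternatives were the replicate number as a block, 2 other scalings, 3 filters, 2 pseudocounts, plain moderation, limma-voom on recovered fragments and leaving out each library. Summing without Lars2, and without Lars2, Tars2 and Rars2, was chosen after seeing the data. No pair of libraries in a group agreed within sampling noise, with a chi-square of recovered fragments that averaged, per gene, 7.83 to 22.3 within GCA and 5.79 to 6.89 within PBS.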

Additional observations from a re-analysis of the deposited data

How the results depend on the processing

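Of the 12 called synthetases, all kept their calls and directions under quantile normalization, median centring, the filters at 0.5 and 5 FPKM, both other pseudocounts and limma-voom. Qars alone was lost without trend and robust moderation (adjusted p = 0.0632). With no filter on low values, where 27263 genes share the adjustment, 4 cytosolic genes were lower, and 13 of the amino acid response were lower, with 735 genes higher and 340 lower in the whole table. On leaving out 1 library, 3 to 10 cytosolic genes were lower and none was higher. The same omissions gave 12 to 20 lower in the amino acid response, and 841 to 1310 higher and 384 to 768 lower in the whole table. Calls that held on each omission were those of Iars, Nars, Sars and Tars2. No estimate of a called member changed sign in any fit. The mitochondrial count was 1 to 2 higher and its median −0.0098 to 0.061 over the omissions, and the median was 0.12 at the filter of 5 FPKM, where 5 genes were tested. The cytosolic median ran from −0.20 to −0.17 over the omissions. Whether equal replicate numbers pair the samples was left undecided. The deviations of libraries with equal numbers correlated at 0.082, 0.0287 and 0.0676. For different numbers the correlations were lower, at −0.0815 to 0.0231. With the replicate block 9 cytosolic genes were lower and 1 mitochondrial gene higher, Aars and Mars1 missing the threshold at 0.0539 and 0.0501, and the whole table had 1334 higher and 760 lower. Depth behind single values was lowest in the mitochondrial set, at 68 fragments.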
